A study of Mus musculus with 6 samples.

Results

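The genes of the cytosolic ribosome's proteins were examined in osteoblasts treated with a glucocorticoid, with and without extracellular vesicles. The members were chosen by name only, as the rows of the gene table with an Rpl or Rps symbol of the cytosolic kind, without mitochondrial ribosomal proteins, ribosomal S6 kinases and symbols marked as pseudogenes. They were 85 of the 21686 genes in the table, 50 with an Rpl symbol for the large subunit and 35 with an Rps symbol for the small subunit. GENCODE annotated 80 of them as protein coding and 5 (Rpl32l, Rpl6l, Rps12l1, Rps3a2 and Rps3a3) as processed pseudogenes despite their names. The cells were MC3T3-E1 Subclone 14, a clonal mouse line of osteoblast precursors, and RNA was sequenced in 2 libraries for each of 3 groups after 72 hours. The control group received 100 µL of PBS, the dexamethasone group 10 µM dexamethasone, a synthetic glucocorticoid, and the dexamethasone + EPC-EVs group 10 µM dexamethasone with 100 µg of extracellular vesicles from bone marrow endothelial progenitor cells. No group received EPC-EVs without dexamethasone. The paper's Results call the 2 libraries of a group biological replicates. The labels do not say whether these libraries came from separate cultures, so the p-values measure only the spread between them. The series' own design text names fibroblasts and an earlier time, against the sample labels, which were followed here.

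A cytosolic ribosome is built from a large and a small subunit, each a core of ribosomal RNA covered by many proteins, most of them present once per ribosome. Their messenger RNAs are among the most abundant of a growing cell, and most carry a run of pyrimidines at the start of the transcript, the TOP motif, through which growth signalling controls their translation. Osteoblasts secrete large amounts of collagen, and mutations of several of these genes cause Diamond-Blackfan anaemia, an inherited failure of red cell production that often comes with skeletal malformations.

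The libraries held between 5146760 and 13182014 counts on genes, with the 2 deepest in the dexamethasone + EPC-EVs group (12864009 and 13182014). A level of 3 counts, used here as the lower limit, was worth 0.228 to 0.583 CPM, counts scaled to a library total of 1000000. All 10 osteoblast markers listed were counted, with a summed level of 15266 to 16922 CPM in control and dexamethasone and 20953 to 26951 CPM with dexamethasone + EPC-EVs, where Col1a1 was higher and Spp1 and Dmp1 lower than in every other library, but Alpl, Bglap and Ibsp, which mark mature osteoblasts, stayed below 7 CPM in every library. The endothelial marker Cdh5 was at 0 counts in 5 of the 6 libraries, and Cd34 made up most of the 242 to 416 CPM summed over the endothelial list. Genes encoded by mitochondrial DNA took 7.46% and 8.62% of the counts in control, 5.55% and 5.78% in dexamethasone, and 0.465% and 0.727% in dexamethasone + EPC-EVs. The noncoding gene Gm26917 took 0.606% and 0.252%, 1.14% and 0.788%, and 5.88% and 6.69% in the same order. The part of these library differences in the results on ribosomal protein genes was not tested.

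Ribosomal protein genes took a similar share of the counts in both dexamethasone groups, and a lower share in control. They took 2.29% (95% Wilson interval 2.28% to 2.30%) and 1.99% (1.98% to 2.00%) in the control libraries. They took 2.67% (2.66% to 2.68%) and 2.61% (2.60% to 2.62%) with dexamethasone. With dexamethasone + EPC-EVs they took 2.61% (2.60% to 2.62%) and 2.50% (2.49% to 2.51%). Both control libraries lay below all 4 others, and the other groups nearly touched each other. Without mitochondrially encoded genes in the total the shares were 2.48% and 2.18%, 2.83% and 2.77%, and 2.62% and 2.52% in the same order of groups, and the dexamethasone groups then lay further apart. The intervals cover counting error only, and in bulk RNA fewer cells with a transcript and less of it per cell cannot be told apart. RNA brought in by the vesicles and RNA of the osteoblasts cannot be told apart either.

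As parts of all counts, both subunits had higher shares with dexamethasone than in control. With EPC-EVs added the large subunit's share was lower and the small subunit's higher. Small subunit genes took 0.829% and 0.712% of the counts in control, 1.02% and 0.993% with dexamethasone, and 1.09% and 1.06% with dexamethasone + EPC-EVs. Large subunit genes took 1.46% and 1.28%, 1.65% and 1.62%, and 1.52% and 1.44%. The ratio of large to small subunit counts was thus 1.77 and 1.79 in control, 1.61 and 1.63 with dexamethasone, and 1.40 and 1.36 with dexamethasone + EPC-EVs. The groups did not overlap in this ratio, which is given as a description with no test. Rpl21, a large subunit gene, carried 7.84% and 9.02% of the members' counts in control, 5.60% and 6.29% with dexamethasone and 1.16% and 1.22% with dexamethasone + EPC-EVs. Without Rpl21 the group means of the ratio were 1.55, 1.46 and 1.35, which was computed after the values were seen. The large subunit's share without Rpl21 was 1.50% and 1.45% with dexamethasone and 1.49% and 1.41% with dexamethasone + EPC-EVs, so that these groups then overlapped. These totals include mitochondrially encoded genes, whose own share differed between the groups. The order and overlap of the subunits' shares can differ without those genes, which is not given here. The ratio does not depend on the total.

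**Figure D1:**
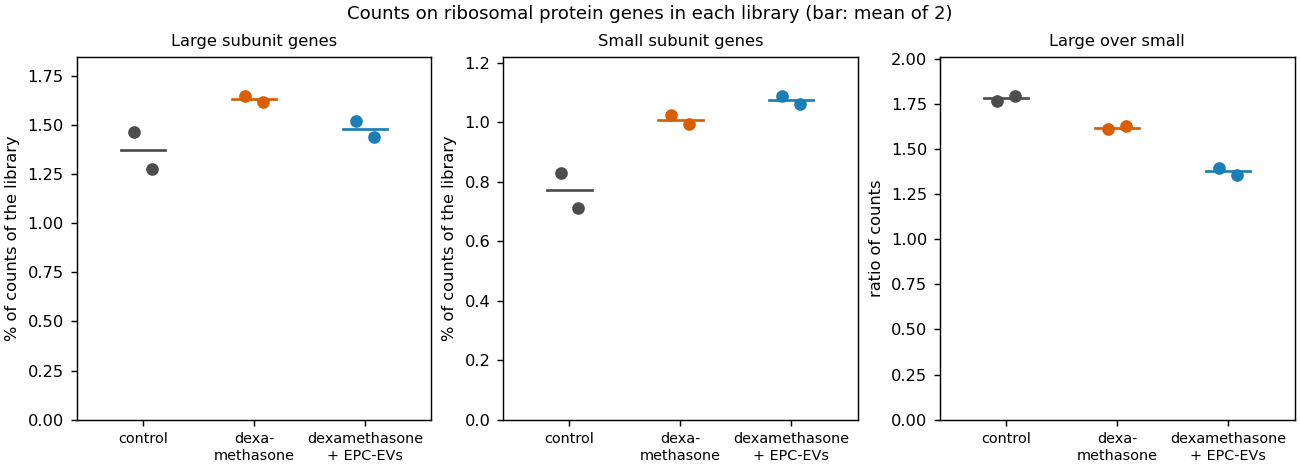
Share of the counts of each library on large subunit genes (left, %), on small subunit genes (middle, %) and the ratio of both (right). Points are libraries and bars the mean of 2; the ratio falls from 1.77 and 1.79 in control to 1.40 and 1.36 with dexamethasone + EPC-EVs.

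Levels of single members spread widely. Per length, in FPKM (counts divided by gene length and library total), the median of the 80 protein-coding members was 102 and 79.5 in control, 122 and 116 with dexamethasone, and 126 and 123 with dexamethasone + EPC-EVs. The 5 highest by mean FPKM were Rpl41 (638 to 1068 FPKM over the 6 libraries), Rps2 (582 to 839), Rpl17 (404 to 735), Rps3a1 (449 to 723) and Rps26 (398 to 764). Rpl41 lay above Rps2 in each of the 6 libraries, although in control their libraries overlapped. Rpl17 lay above Rps3a1 in all control and dexamethasone libraries and below it with EPC-EVs, so that the order depended on the group.

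The lowest of the protein-coding members were Rpl24 (0.52 to 1.18 FPKM), Rpl22l1 (2.71 to 6.54), Rpl13a (6.41 to 13.3), Rpl7l1 (9.25 to 27.1) and Rps18 (8.81 to 32.9). Rpl24 and Rpl13a code for core large subunit proteins and share sequence with other genes, and the part of this in their low levels was not tested. Over the 80 protein-coding members Spearman's rho between mean FPKM and the share of 150-base windows found in other genes was 0.134, a description across genes. Another gene on the same strand, Gm28037, overlapped 47.0% of the exonic bases of Rpl24, and 72.5% of the 150-base windows along its transcript also occurred in other genes. For Rpl13a these values were 35.4% and 52.7%. Rpl24 held 0.549 to 1.16 CPM and the 5 annotated pseudogenes at most 1.43 CPM, so small changes of these 6 were beyond reach at this depth. Of them 4 passed the filter on low counts in no comparison, Rpl24 passed it only in dexamethasone + EPC-EVs against dexamethasone, and Rps3a3 only in dexamethasone + EPC-EVs against control.

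The spread between members narrowed with EPC-EVs. The SD of log2 FPKM over 79 members was 1.81 and 1.83 in control, 1.75 and 1.78 with dexamethasone, and 1.47 and 1.42 with dexamethasone + EPC-EVs. The rank order of the 80 protein-coding members was close in the libraries of 1 group, with Spearman's rho of 0.978, 0.993 and 0.994 in the order given above. Between a control and a dexamethasone + EPC-EVs library rho was 0.756 to 0.802. These are correlations across genes, which are not independent replicates, of libraries that also differ in depth.

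Dexamethasone against control asks what the glucocorticoid alone did. Most members lay slightly higher with dexamethasone, and none was called by edgeR's quasi-likelihood test at an adjusted p under 0.05. Among 79 members tested 0 were called, where 0.0544% of all 12879 genes tested were called, 0.0155% higher and 0.0388% lower. At an unadjusted p under 0.05 there were 31 members higher and 0 lower, where 5.61% and 5.33% of all genes passed in each direction. DESeq2 called 4 members, all higher, and 1.04% of all genes. The log2 fold change was positive for 70 members and negative for 9, with a median of 0.29 beside 0.01 over all genes. With the trend on GC content and transcript length removed the median was 0.16, beside -0.04 over all genes. In that fit 24 members were higher and 2 lower at an unadjusted p under 0.05. The shares of all genes at this threshold in that fit are not given here. The libraries of both groups did not overlap for 51 members that were higher and 4 that were lower, beside 22.8% and 21.2% of all genes. No member passed the threshold of the study's methods (a change beyond 1.5 on the log2 scale with p under 0.05 before adjustment), which 0.831% of all genes passed as higher and 0.582% as lower.

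These calls varied with the control libraries and with the test. Without control replicate 1, 39 members were called higher and 1 lower, and 16.0% of all genes were called. Without control replicate 2, 2 members were called higher, and 0.826% of all genes were called. In each of these fits control is a single library whose spread is taken from the dexamethasone pair. Without a filter on low counts 13 members were called higher, beside 1.26% of all genes in both directions. The control libraries differed for many members: Rpl15, of the large subunit, held 72.2 and 25.9 CPM in control and 97.1 and 95.1 CPM with dexamethasone.

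Rps27, a small subunit gene, had the largest positive change, with 21.7 and 14.5 CPM in control against 46.1 and 33.4 CPM with dexamethasone (log2 fold change 1.13 ± 0.31 SE, adjusted p = 0.291 in edgeR). Rplp1, of the ribosomal stalk, held 55.1 and 26.9 CPM against 91.4 and 69.8 CPM (0.97 ± 0.31, adjusted p = 0.346). In both the dexamethasone libraries lay above both control libraries, and neither passed the threshold. The most negative was Rpl22l1, a paralog of Rpl22, with 5.38 and 13.3 CPM in control against 5.24 and 5.59 CPM (-0.79 ± 0.59, adjusted p = 0.658), where the groups overlapped.

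**Figure D2:**
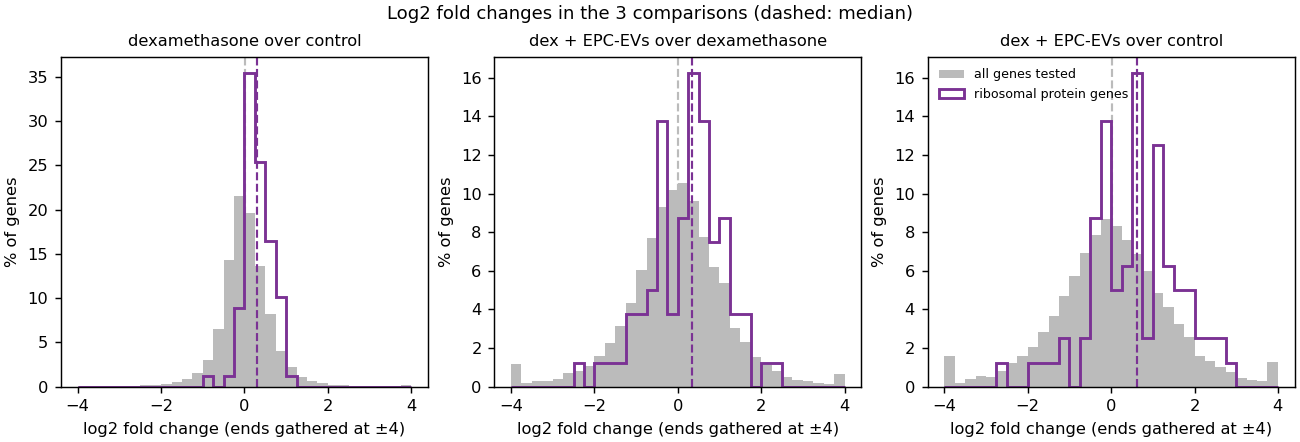
Log2 fold changes (x axis, values beyond 4 gathered at the ends) of the ribosomal protein genes tested (purple line) and of all genes tested (grey), as % of genes (y axis), in the 3 comparisons; dashed lines are medians. The members' medians lie at 0.29, 0.34 and 0.63 against 0.01, 0.01 and 0.02 over all genes.

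Dexamethasone + EPC-EVs against dexamethasone asks what the vesicles added. More members rose than fell, with the share that rose above that of all genes and the share that fell close to it. Of 80 members tested, 37 rose and 16 fell (edgeR, adjusted p under 0.05), where 20.9% of all 13556 genes rose and 18.9% fell, 39.8% in all. The share of members that rose was 46.2%. The median log2 fold change was 0.34, against 0.01 over all genes. Among the 48 large subunit members tested, 18 rose and 15 fell, and among the 32 of the small subunit 19 rose and 1, Rps26, fell. The difference between the subunits was not tested. At an unadjusted p under 0.05, 41 members were higher and 23 lower, beside 25.2% and 23.2% of all genes. The libraries did not overlap for 52 members that were higher and 26 that were lower, beside 38.5% and 34% of all genes. The threshold of the study's methods left 5 members higher and 3 lower, beside 7.05% and 7.13% of all genes.

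With the trend on GC content and transcript length removed, 32 members rose and 22 fell, and 59.3% of the called members were higher in place of 69.8%. In that fit the members' median was 0.21, and 16.4% of all genes rose and 15.3% fell. In that fit 16 large and 6 small subunit members fell, so the small subunit no longer had a single fall. Across all genes the log2 fold change went up with the GC content of the longest annotated transcript (Spearman's rho 0.489), and across the members less so (0.164, n = 80). Without dexamethasone replicate 2, 23 members rose in place of 37 and 12 fell in place of 16, beside 12.1% and 10.1% of all genes. Fewer small subunit members rose when either dexamethasone library was left out. With all 6 libraries in one fit 12 of them rose in place of 19, beside 15.2% of all genes. Under upper quartile normalisation 3 small subunit members fell, beside 20.4% of all genes.

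**Figure D3:**
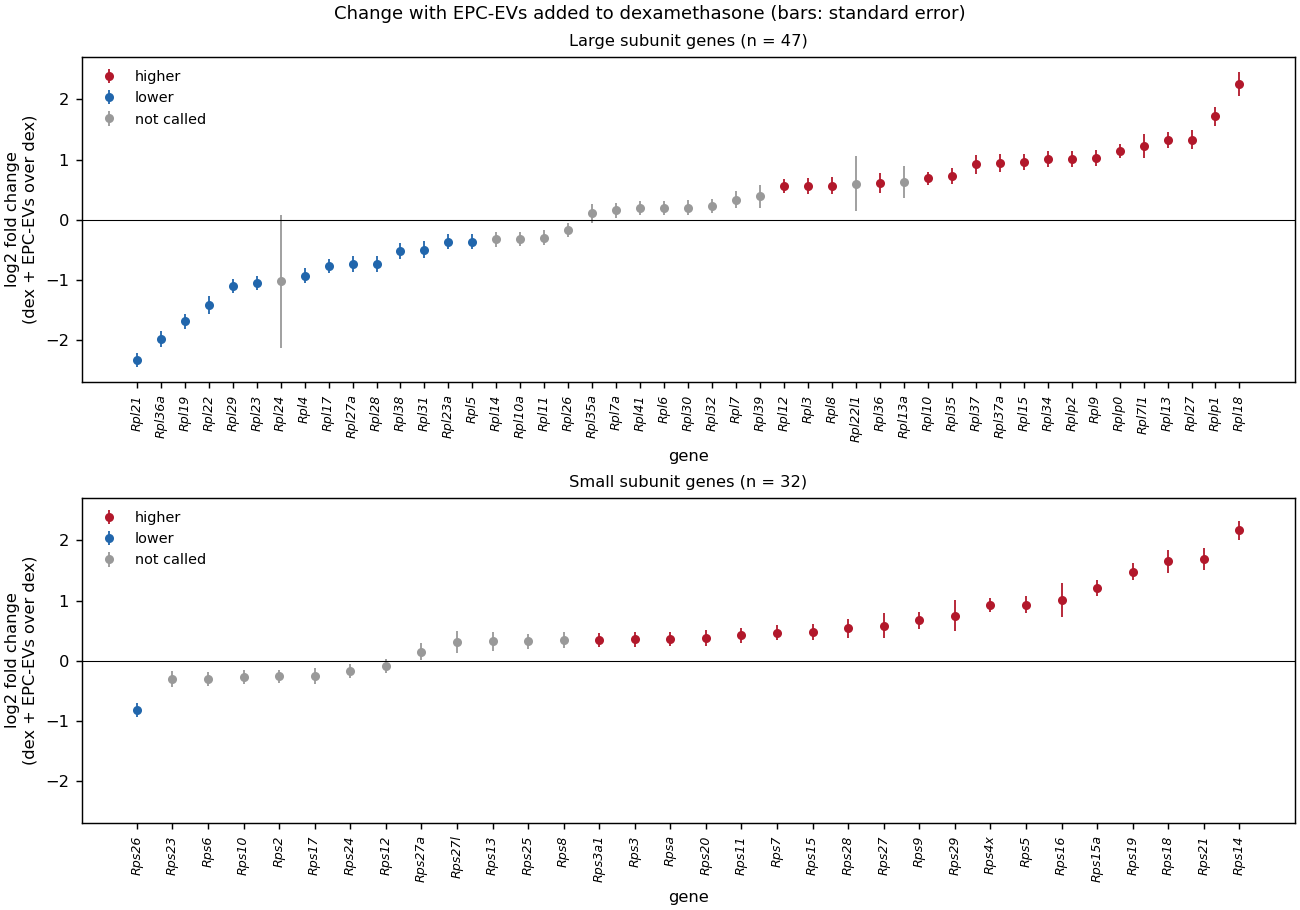
Log2 fold change (y axis) of dexamethasone + EPC-EVs over dexamethasone for the members shown by name (x axis), 47 large subunit genes (top) and 32 small subunit genes (bottom); bars are standard errors, red marks rises, blue falls and grey genes not called. The falls shown stand in the upper panel except for 1, and Rps26 is the single blue point in the lower.

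The largest rise was that of Rpl18, a large subunit gene on chromosome 7 (45715457 to 45720836, plus strand, GRCm38). It held 36.7 and 24.7 CPM with dexamethasone and 162 and 142 CPM with EPC-EVs added (log2 fold change 2.26 ± 0.20, adjusted p = 9.26e-06). Its control libraries, at 32.3 and 23.3 CPM, overlapped with dexamethasone, so only the vesicle libraries stood apart.

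Rps14, a protein of the small subunit's platform, followed with 81.1 and 64.8 CPM against 353 and 322 CPM (2.16 ± 0.15, adjusted p = 2.18e-06). Its control libraries held 57.0 and 36.0 CPM. Both vesicle libraries thus lay far above every other library.

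Rps21 rose from 36.3 and 28.4 CPM to 103 and 112 CPM (1.69 ± 0.18, adjusted p = 3.69e-05). Rps18 rose from 24.5 and 24.4 CPM to 83.6 and 75.2 CPM (1.65 ± 0.19, adjusted p = 5.17e-05). Rps19, the gene most often mutated in Diamond-Blackfan anaemia, rose from 72.5 and 68.0 CPM to 209 and 195 CPM (1.48 ± 0.14, adjusted p = 1.53e-05). These 3 small subunit genes, like Rps15a (123 and 106 CPM against 274 and 272 CPM, 1.21 ± 0.14), had vesicle libraries far outside the range of the other 4.

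On the large subunit Rpl27 rose from 113 and 82.7 CPM to 254 and 255 CPM (1.33 ± 0.16, adjusted p = 7.74e-05). Rpl13 rose from 117 and 112 CPM to 305 and 290 CPM (1.33 ± 0.13, adjusted p = 1.79e-05). Rpl7l1, a paralog of Rpl7 with a part in ribosome assembly, rose from 25.8 and 33.3 CPM to 69.8 and 73.1 CPM (1.23 ± 0.20, adjusted p = 0.000553). These genes were of low or middling level before the vesicles: of the 10 largest rises, only Rps15a and Rpl13 held over 100 CPM in both dexamethasone libraries.

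The largest falls included genes of the highest level. Rpl21, on chromosome 5 (146832890 to 146837032, plus strand), held 1794 and 1838 CPM in control, 1435 and 1589 CPM with dexamethasone and 308 and 316 CPM with dexamethasone + EPC-EVs. Its log2 fold change with EPC-EVs was -2.32 ± 0.12 (adjusted p = 2.43e-07), a mean level 4.84 times lower. Reads of Rpl21 can also match other genes, since 20 other genes, 19 of them pseudogenes, shared 150-base windows with its longest protein-coding transcript, over 10.9% of its windows.

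Rpl36a, on the X chromosome, fell from 292 and 273 CPM to 74.9 and 72.8 CPM (-1.98 ± 0.13, adjusted p = 1.70e-06). Rpl19, a protein of the tunnel's rim whose RNA is often used as a reference gene in quantitative PCR, fell from 683 and 754 CPM to 233 and 228 CPM (-1.69 ± 0.12, adjusted p = 2.53e-06). Rpl22 fell from 153 and 177 CPM to 68.2 and 59.7 CPM (-1.41 ± 0.15, adjusted p = 3.65e-05). In these 3 genes the control and dexamethasone libraries overlapped and the vesicle libraries lay far below.

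Rpl29 fell from 542 and 530 CPM to 255 and 265 CPM (-1.09 ± 0.12, adjusted p = 3.55e-05), to below both control libraries, at 432 and 271 CPM. Rpl23 fell from 597 and 583 CPM to 288 and 302 CPM (-1.04 ± 0.12, adjusted p = 4.46e-05). Rpl4, a large protein reaching into the exit tunnel, fell from 1074 and 1070 CPM to 646 and 520 CPM (-0.93 ± 0.13, adjusted p = 0.000191). The remaining named falls, Rps26 (-0.82 ± 0.11) and Rpl17 (-0.77 ± 0.12), were smaller than these, and in both of them every vesicle library lay below every dexamethasone library. Beyond the 10 largest rises, the log2 fold changes of the other 27 ran from 0.35 (Rps3a1, whose call was lost in 5 alternatives) to 1.14 (Rplp0). Among the smaller falls were Rpl27a (-0.73) and Rpl5 (-0.36).

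**Figure D4:**
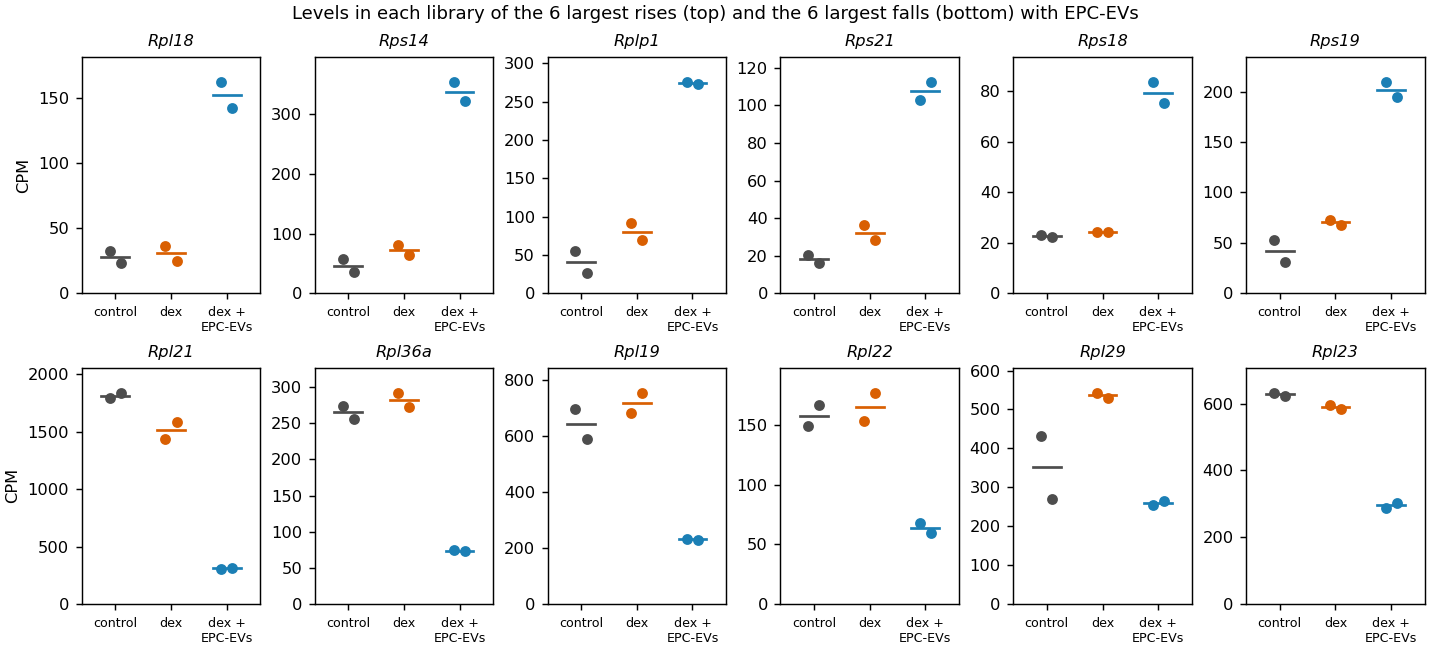
CPM (y axis, from 0) in each library of the 6 largest rises (top row) and the 6 largest falls (bottom row) with EPC-EVs, by group (x axis); points are libraries and bars the mean of 2. In the top row the vesicle libraries lie above the other 4, as for Rps14 at 353 and 322 CPM, and in the bottom row below them, as for Rpl21 at 308 and 316 CPM.

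The sequence at the transcription start is shown for members with a rise and with a fall, since the TOP motif lies there. RefSeq gave a promoter entry for 61 of the 85 members, in 72 entries of 32851 in all. The 30 bases around the start, 15 on each side, were searched on the sense strand for the letters CTTTC or, in their place, CTTTT or else CTTCC, short runs of the kind that begin TOP messenger RNAs. The windows below are those of 5 genes with such letters, in capitals, and of 1 rise and 1 fall without them (GRCm38.p6, 5′ to 3′ on the gene's strand).
Rpl18, rise, chr7:45718056-45718085, plus strand: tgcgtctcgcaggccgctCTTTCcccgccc
Rps18, rise, chr17:33955651-33955680, minus strand: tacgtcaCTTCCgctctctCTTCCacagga
Rps15a, rise, chr7:118116133-118116162, minus strand: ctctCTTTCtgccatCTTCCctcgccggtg
Rps19, rise, chr7:24884577-24884606, plus strand: tccgaaatctcgcgagactcgacgcccgac
Rpl36a, fall, chrX:134585639-134585668, plus strand: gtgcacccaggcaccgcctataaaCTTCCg
Rpl4, fall, chr9:64173372-64173401, plus strand: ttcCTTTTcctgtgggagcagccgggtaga
Rpl19, fall, chr11:98026695-98026724, plus strand: tgaccaaacgccctcactgcgcatgtgcgc

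Such letters occurred in 29 of the 72 member entries (40.3%) and in 13% of all entries. On the other strand they occurred in 16.7% and 13.1%. Genes of both directions held them: 12 of 32 entries of genes that rose with EPC-EVs (37.5%), 7 of 13 of genes that fell (53.8%) and 9 of 26 of genes not called (34.6%). The motif CCGGAAG, searched on both strands over the whole 300 bases, occurred in 36.1% of member entries and 8.86% of all entries, and in 34.4%, 38.5% and 38.5% of the entries of rising, falling and not called genes. A match is a description of the letters only, and the motifs can overlap where CTTCC is read from CCGGAAG on the opposite strand.

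Dexamethasone + EPC-EVs against control compares the doubly treated cells with the untreated. Of 80 members tested, 41 rose and 7 fell, where 19.1% of all 13511 genes rose and 17.2% fell, 36.4% in all. At an unadjusted p under 0.05, 45 members were higher and 8 lower, beside 24.4% and 22.3% of all genes. The libraries did not overlap for 52 higher and 18 lower members, beside 39.1% and 33.9% of all genes. The threshold of the study's methods left 15 higher and 3 lower, beside 11.2% and 9.52% of all genes. All 7 falls were of the large subunit, and the small subunit had 20 rises and 0 falls among 33 tested (edgeR, 0 lower at an unadjusted p under 0.05, and 0 lower in DESeq2). The median log2 fold change was 0.63, against 0.02 over all genes. With the trend on GC content and length removed, 34 members rose and 18 fell, 4 of these of the small subunit, beside 12.3% and 14.2% of all genes, with a median of 0.37, and 65.4% of the called members were higher in place of 85.4%. This comparison shares its libraries with the other comparisons and is no independent evidence of their directions.

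**Figure D5:**
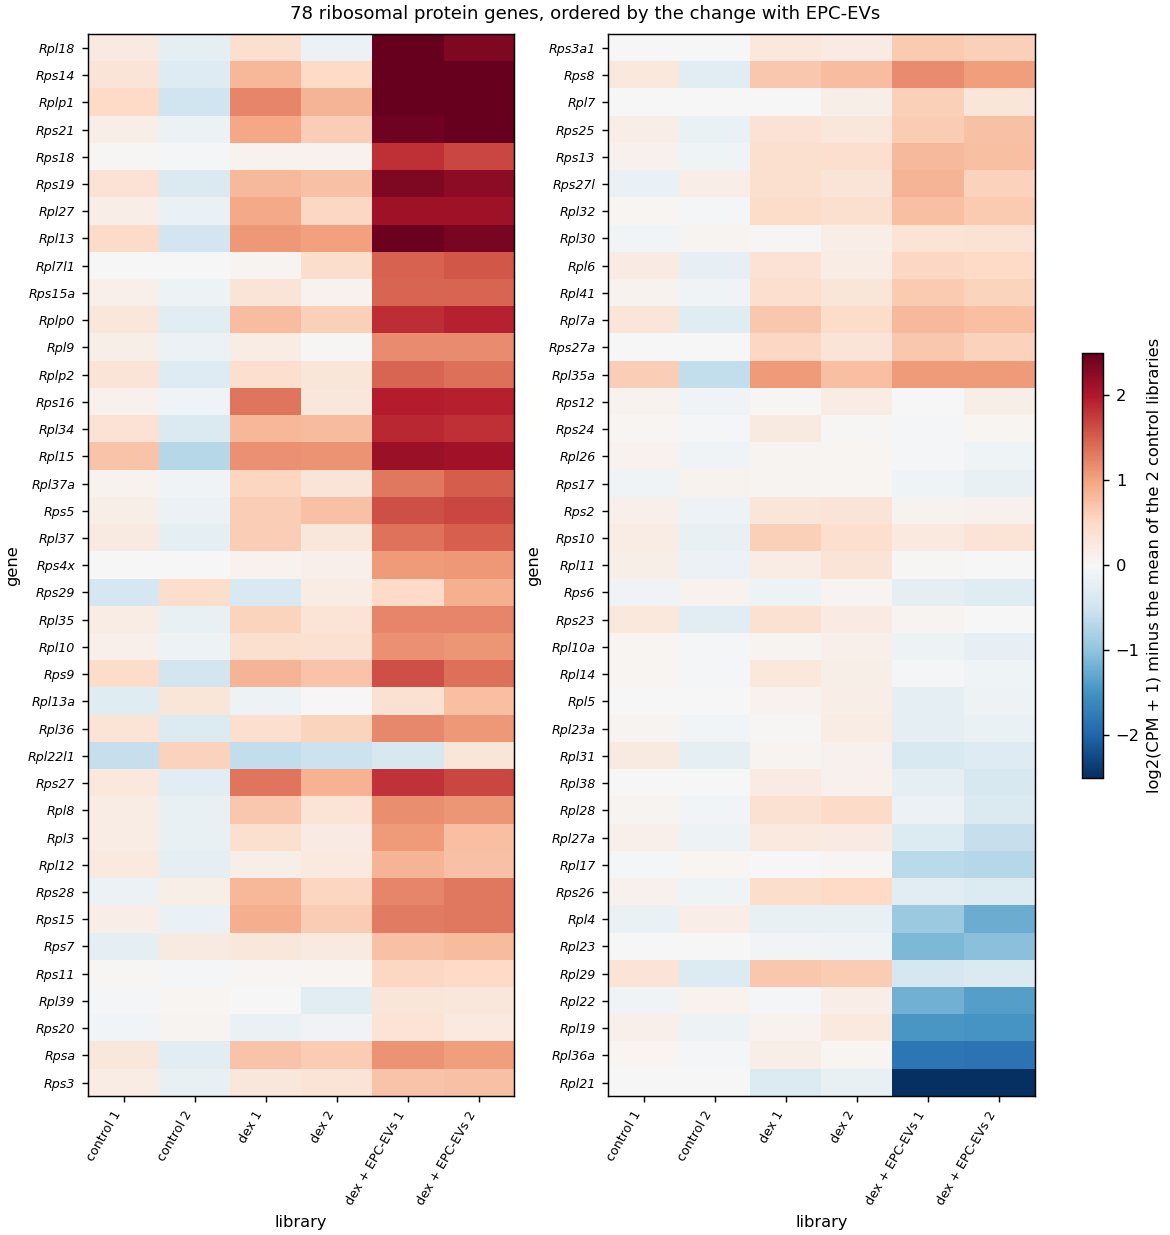
Level of 78 ribosomal protein genes (rows, ordered by the change with EPC-EVs from the top left to the bottom right) in each of the 6 libraries (columns), as log2(CPM + 1) minus the mean of the 2 control libraries, with red above and blue below it and colours saturated at the ends of the scale. Both vesicle libraries are deep red for Rpl18 and Rps14 and deep blue for Rpl21, while the dexamethasone libraries are mostly pale.

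Rps14 rose most against control (log2 fold change 2.81 ± 0.25, adjusted p = 0.000284), a mean level 7.26 times higher, followed by Rplp1 (2.69 ± 0.31), Rps21 (2.51 ± 0.24), Rpl18 (2.40 ± 0.24), Rpl13 (2.31 ± 0.30), Rps19 (2.21 ± 0.27) and Rpl27 (2.08 ± 0.20). Rps16 held 35.0 and 29.7 CPM in control, 83.3 and 39.3 CPM with dexamethasone and 128 and 127 CPM with dexamethasone + EPC-EVs (1.93 ± 0.21, adjusted p = 0.000551). Rpl15, with its wide control libraries, reached 198 and 189 CPM (1.93 ± 0.40, adjusted p = 0.00649). The vesicle libraries of all 9 genes lay above both control libraries.

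The 7 falls against control were Rpl21 (-2.59 ± 0.17), Rpl36a (-1.89 ± 0.18), Rpl19 (-1.52 ± 0.18), Rpl22 (-1.35 ± 0.20), Rpl23 (-1.14 ± 0.17), Rpl4 (-1.13 ± 0.20) and Rpl17 (-0.75 ± 0.17). Rpl17 lost its call when either vesicle library was left out. Rps26, lower than with dexamethasone alone, held 677 and 636 CPM, beside 875 and 747 CPM in control, and was not called against it.

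The stalk, a flexible arm of the large subunit that recruits elongation factors, was called higher in all of its genes: Rplp0, Rplp1, Rplp2 and Rpl12 rose, 4 of 4, against dexamethasone (20.9% of all genes) and against control (19.1%), although Rpl12 lost its call against control in 3 alternatives (adjusted p = 0.0503 to 0.0993). Rplp0, the stalk's base, held 472 and 321 CPM in control, 668 and 593 CPM with dexamethasone and 1402 and 1471 CPM with dexamethasone + EPC-EVs (1.14 ± 0.12 against dexamethasone, adjusted p = 2.36e-05). Rplp1, a tip protein, rose from 91.4 and 69.8 CPM to 275 and 274 CPM (1.72 ± 0.16, adjusted p = 1.08e-05). With EPC-EVs added both libraries of Rplp0 lay above those of Rps2, at 1269 and 1276 CPM, and in the other libraries below them.

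Its partner at the tip, Rplp2, rose from 126 and 116 CPM to 258 and 246 CPM (1.02 ± 0.13, adjusted p = 0.000128). Rpl12, at the foot of the stalk, rose least, from 585 and 627 CPM to 962 and 885 CPM (0.56 ± 0.11, adjusted p = 0.00237), and lost its call without dexamethasone replicate 1 (adjusted p = 0.058). With the trend on GC content and length removed Rplp1 rose by 1.07 and Rplp2 by 0.53, and all 4 genes were still called. With dexamethasone alone the 4 genes had a median log2 fold change of 0.49 and none was called by edgeR.

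Rpl5 and Rpl11, which join the 5S ribosomal RNA in a particle that also restrains Mdm2, did not follow the stalk. Rpl5 held 431 and 435 CPM in control, 459 and 486 CPM with dexamethasone and 366 and 395 CPM with dexamethasone + EPC-EVs, a small fall (-0.36 ± 0.12, adjusted p = 0.0311) that turned to 0.14 with the trend on GC content and length removed and lost its call in 4 further alternatives (adjusted p = 0.0645 to 0.211). Rpl11 held 267 and 217, 274 and 303, and 247 and 239 CPM in the same order, and was not called in any comparison.

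Around the exit of the tunnel through which the new protein leaves, 5 of 8 listed genes fell with EPC-EVs (Rpl4, Rpl17, Rpl19, Rpl23a and Rpl31) and 1, Rpl35, rose, beside 18.9% and 20.9% of all genes, with the call of Rpl31 lost in 4 alternatives. The fall of Rpl23a was small (-0.36 ± 0.12, adjusted p = 0.0346 in edgeR), and alternatives for it and for Rpl35 are not given here. Rpl35 held 254 and 219 CPM with dexamethasone and 405 and 404 CPM with EPC-EVs. Genes on the other strand overlapped 66.2% of the exonic bases of Rpl35 (Arpc5l and Wdr38), 59.7% of those of Rpl23a (Tlcd1) and 25.3% of those of Rpl31 (Tbc1d8). The paper's methods name a strand option (RF) for the alignment with HISAT2. No source used here says whether reads were counted by strand, so reads of these genes cannot be told apart from those of the members. Rpl26 and Rpl39 were not called, with 376 and 368 against 350 and 333 CPM and 51.2 and 41.4 against 63.1 and 62.2 CPM. Against control 3 of the 8 fell and 1 rose, beside 17.2% and 19.1% of all genes, and with dexamethasone alone none was called.

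Of 13 genes mutated in Diamond-Blackfan anaemia, 5 rose with EPC-EVs (Rps19, Rpl15, Rps29, Rps28 and Rps7) and 2 fell (Rps26 and Rpl5, the latter with the limits given above), beside 20.9% and 18.9% of all genes. Rpl15 rose from 97.1 and 95.1 CPM to 198 and 189 CPM (0.96 ± 0.13, adjusted p = 0.000211). Rps28 rose from 93.0 and 75.5 CPM to 123 and 131 CPM (0.54 ± 0.16, adjusted p = 0.0167), and Rps7 from 234 and 226 CPM to 323 and 334 CPM (0.47 ± 0.12, adjusted p = 0.00977). Rps28 lost its call without dexamethasone replicate 2 (adjusted p = 0.167), Rps7 without either dexamethasone library (adjusted p = 0.0687 and 0.109), and Rps29 in 4 alternatives (adjusted p up to 0.212). Against control 4 of the 13 rose and none fell, beside 19.1% and 17.2% of all genes, with the rise of Rps7 lost in 3 alternatives, among them those without either vesicle library (adjusted p = 0.0566 and 0.0805), and their median log2 fold change was -0.17 against dexamethasone and 0.23 against control.

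Rpl35a, another gene of this list, had control libraries that lay apart: it held 72.6 and 30.7 CPM in control, 99.4 and 79.9 CPM with dexamethasone and 99.5 and 101 CPM with dexamethasone + EPC-EVs. It was not called against control (0.90 ± 0.35, adjusted p = 0.0763), but was called in 8 alternatives, among them DESeq2 and the fit without control replicate 1.

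Paralogs of ribosomal proteins were compared with their partners. Of the 8 listed, 4 were in the table and 3 were tested. Rpl7l1 rose, as given above, whereas its partner Rpl7 held 217 and 242 CPM with dexamethasone and 329 and 270 CPM with EPC-EVs and was not called. Rpl22l1, which can stand in for Rpl22, held 5.24 and 5.59 CPM with dexamethasone and 6.26 and 10.8 CPM with EPC-EVs (0.60 ± 0.46, adjusted p = 0.319), while Rpl22 itself fell.

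Rps27l, a p53 target, held 36.5 and 46.4 CPM in control, 54.9 and 51.5 CPM with dexamethasone and 74.8 and 61.5 CPM with EPC-EVs, and its change against control was not called (0.67 ± 0.24, adjusted p = 0.0601). It was called in 4 alternatives, among them the fit without control replicate 2 (0.87, adjusted p = 0.027) and that with the trend on GC content and length removed (1.58, adjusted p = 0.00109). Its partner Rps27 lay below it in every library, per length in FPKM as well as in CPM, and rose against control, to 64.5 and 58.7 CPM (1.71 ± 0.28, adjusted p = 0.00252). The rise of Rps27 against dexamethasone (0.58 ± 0.21, adjusted p = 0.0415) was lost in 7 alternatives. Of the other partners Rpl36a fell, as given above, Rpl39 was not called, and Rpl3 (380 and 336 against 604 and 490 CPM), Rpl10 (450 and 450 against 761 and 739 CPM) and Rps4x (245 and 252 against 484 and 487 CPM) rose with EPC-EVs, with the call of Rpl3 lost in 2 alternatives.

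A further readout of the same reads, the FPKM of single transcripts, was used for the members on chromosome 1. The main transcript of Rpl37a held 73.0 and 61.7 FPKM in control, 120 and 79.5 with dexamethasone and 227 and 276 with dexamethasone + EPC-EVs, and the gene count rose as well (0.94 ± 0.15 against dexamethasone, adjusted p = 0.000404). With the trend on GC content and length removed this value dropped to 0.19 and was not called (adjusted p = 0.358). The main transcript of Rpl31 held 69.9 and 36.4, 94.6 and 86.2, and 66.2 and 60.4 FPKM. The gene count of Rpl31 fell from 139 and 141 to 101 and 104 CPM (-0.49 ± 0.14, adjusted p = 0.0142), a call that was lost in 4 alternatives.

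Rpl7, an early binder of the large subunit, differed between groups in its transcripts. Its gene count was not called in any comparison, although both vesicle libraries, at 329 and 270 CPM, lay above the others. Its main transcript ENSMUST00000058437.13 held 5.12 and 5.13 FPKM in control, 130 and 87.8 with dexamethasone and 202 and 165 with dexamethasone + EPC-EVs. In control the shorter ENSMUST00000125005.1 held 88.1 and 36.4 FPKM instead, and at most 0.25 in the other libraries. The main transcript made up 4.03% and 10.5% of the summed FPKM of Rpl7 in control and 59.7% to 96.3% elsewhere. The gene count in control, 216 and 218 CPM, was close to the 217 and 242 CPM with dexamethasone, and the part of StringTie's division of reads among transcripts was not tested.

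Sequence features of the members were set beside the calls. Members that rose with EPC-EVs had a median GC content of 52.8% in their longest protein-coding transcript, those that fell 48.9% and those not called 50.9%. The median length was 964, 1082.5 and 878 bases. A 150-base window shared with another annotated gene was present in 72 of the 85 members, and the median share of such windows was 10.7% among rises, 28.8% among falls and 41.6% among members not called. Across members the log2 fold change with EPC-EVs went down with this share (Spearman's rho -0.295, n = 80), as a description across genes. Exons of another gene on the same strand overlapped 9 of the 37 rises, 7 of the 16 falls and 11 of the 27 members not called.

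Genes that work with the ribosome did not move in 1 direction. Proteins of the ribosome whose names the rule leaves out rose where they were called: with EPC-EVs Fau, which encodes a small subunit protein fused to a ubiquitin-like one, went from 194 and 181 to 332 and 288 CPM (0.68 ± 0.13, adjusted p = 0.0018). Rack1, a scaffold on the small subunit, went from 332 and 269 to 483 and 434 CPM (0.56 ± 0.14, adjusted p = 0.00663). They were 2 of 3 tested outside the members, beside 20.9% of all genes rising, and both rose against control as well, beside 19.1%. The value of Fau reversed to -0.26 with the trend on GC content and length removed, and its call and that of Rack1 were lost without dexamethasone replicate 2 (adjusted p = 0.052 and 0.13).

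Translation factors and other proteins whose messenger RNAs carry the TOP motif went both ways with EPC-EVs, 4 rising and 6 falling of 18, and the same counts held against control. These counts and those of the lists that follow stand beside 20.9% of all genes rising and 18.9% falling with EPC-EVs, and 19.1% and 17.2% against control. The largest changes were falls of Npm1, a nucleolar chaperone (341 and 408 against 125 and 126 CPM, -1.63 ± 0.14), Nap1l1, a histone chaperone (459 and 473 against 165 and 197 CPM, -1.41 ± 0.13), and Hnrnpa1, a splicing factor (504 and 527 against 257 and 222 CPM, -1.15 ± 0.13). Their median log2 fold change was -0.23, unlike the 0.34 of the ribosomal protein genes, a difference with no test here.

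Of 40 ribosome biogenesis factors 15 rose and 7 fell with EPC-EVs, and 9 rose and 9 fell against control. Ncl, nucleolin, fell from 610 and 585 to 101 and 117 CPM (-2.50 ± 0.13, adjusted p = 3.21e-07). Grwd1, an assembly factor, rose from 2.62 and 2.65 to 12.6 and 17.9 CPM (2.48 ± 0.43, adjusted p = 0.000811). Rrp9, a protein of the U3 particle, rose from 0.291 and 4.86 to 14.1 and 12.3 CPM (2.31 ± 0.75, adjusted p = 0.0306), a call lost with DESeq2 and with the trend on GC content and length removed.

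Of 23 initiation factors 4 rose and 7 fell with EPC-EVs, and 5 rose and 7 fell against control. The 3 largest changes were falls: Eif2s2, a subunit of the factor that brings the initiator tRNA, from 205 and 213 to 59.1 and 64.1 CPM (-1.81 ± 0.14), Eif5b, which joins the subunits, from 168 and 180 to 50.8 and 58.8 CPM (-1.71 ± 0.15), and Eif3a, the core of the largest initiation factor, from 1228 and 1234 to 391 and 396 CPM (-1.69 ± 0.11). With dexamethasone alone no member of these lists was called by edgeR.

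Of 19 regulators in the mTOR and Myc pathways, which drive ribosome production, 10 rose and 2 fell with EPC-EVs, and 5 rose and 2 fell against control. Akt1s1 and Ddit4, inhibitors of mTOR signalling, rose from 23.4 and 13.5 to 65.4 and 84.9 CPM (1.98 ± 0.26, adjusted p = 0.00016) and from 42.4 and 33.1 to 90.7 and 72.1 CPM (1.06 ± 0.20, adjusted p = 0.00148). Rps6kb1, the kinase of ribosomal protein S6, fell from 124 and 105 to 49.7 and 58.7 CPM (-1.13 ± 0.17, adjusted p = 0.000328). Ddit4 and Rps6kb1 lost their calls with the trend on GC content and length removed (adjusted p = 0.208 and 0.165).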

How the data were processed

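Total RNA of 6 libraries was sequenced in paired reads, and per the labels and the study's methods reads were filtered, aligned to GRCm38 with HISAT2 and counted on genes with HTSeq 0.6.1, with the counting's strand setting not given in the sources used here. The deposited counts were not normalised. The authors' FPKM of genes were checked to equal counts over gene length and library total, and their deposited FPKM of transcripts, from StringTie, held chromosome 1 only.

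Counts were tested here with edgeR 4.0.16 in R 4.3.3 (TMM, filterByExpr, robust quasi-likelihood test), on the 4 libraries of each comparison, with p-values adjusted over all genes by the Benjamini-Hochberg method and called under 0.05. Standard errors were the log2 fold change over the root of F. CPM used TMM over 6 libraries. Annotation was GENCODE vM21, and promoters RefSeq GRCm38.p6. The genes named were in each comparison the 10 largest rises and falls among called members of at least 10 CPM without overlap between groups, the 5 highest and lowest by FPKM, the stalk, 5S particle, Diamond-Blackfan, paralog and chromosome 1 lists, and the 3 largest called changes of each other list. Rpl35, Rpl23a, Rpl27a, Rpl26 and Rpl39, outside the rule, were named after their values were seen, and 1 gene of the rule is not reported here by name but stays in all counts. Members and lists were chosen with earlier results of these data known. Alternatives were DESeq2 1.42.0, other normalisations and filters, a replicate block, left-out libraries and offsets from a loess trend (span 0.4). Code was tested on simulated data.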

Additional observations from a re-analysis of the deposited data

How the results depend on the processing

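With 2 libraries a group and unequal depth, small changes of low members were beyond reach, and other changes could be missed. In simulated data 42% of genes with a known 2-fold change were called for dexamethasone against control. For dexamethasone + EPC-EVs these were 58% against dexamethasone and 34% against control. In dexamethasone against control, members called higher numbered 13 without a count filter, 4 with DESeq2, 1 with the replicate block and 0 to 39 with a library left out, members called lower 0 to 1, and all genes called 248, 134, 43 and 9 to 2200, 18 with the trend on GC content and length removed and 182 at the study's threshold (unadjusted p under 0.05 and log2 fold change beyond 1.5). With EPC-EVs against dexamethasone, leaving out a library gave 23 to 38 higher, 12 to 17 lower and 3250 to 4813 in all, and the study's threshold 5, 3 and 1922. Against control these were 31 to 44, 6 to 10 and 3375 to 6231, the study's threshold gave 15, 3 and 2793, and the trend removed 18 lower. Without mitochondrially encoded genes the members' mean share was 2.33%, 2.80% and 2.57% of counts in control, dexamethasone and dexamethasone + EPC-EVs. The ratio of large to small subunit counts without Rpl21 was 1.55, 1.46 and 1.35. Values reversed for Rpl22l1 in dexamethasone against control (-1.29 to 0.018 with a library left out, positive without control replicate 2), and with the trend removed for Rpl5 (0.14) and Fau (-0.26) with EPC-EVs and Rpl13a (-0.14) and Rpl41 (-0.16) against control. The causes were not tested. Rpl35, Rpl23a and Rpl27a were not followed through the alternatives. Of the called members that were, 25 of 35 against dexamethasone and 23 of 30 against control kept their call in every alternative run. Replicate numbers did not pair the libraries (correlations of deviations 0.05, 0.02 and 0.01), and the replicate block moved no other count by over 1.5 times.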

Other observations

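Genes of the mitochondrial ribosome, which makes the proteins of mitochondrial DNA, rose more often than they fell with EPC-EVs. Of 77 tested, 21 rose and 4 fell against dexamethasone, where 20.9% of all genes rose and 18.9% fell (median of the log2 values 0.31). Against control 23 of 78 rose and 3 fell, beside 19.1% and 17.2% of all genes. Mrps6 went from 11.8 and 16.0 CPM with dexamethasone to 99.5 and 135 CPM (3.03 ± 0.23, edgeR adjusted p = 3.73e-06). Mrps12 went from 1.75 and 3.83 to 17.9 and 23.4 CPM (2.84 ± 0.43) and Mrps11 from 2.62 and 2.80 to 20.4 and 14.7 CPM (2.64 ± 0.41). The mitochondrially encoded genes went the other way, with 10 of 11 falling against dexamethasone and 12 of 12 against control, and mt-Nd2 (-6.01 ± 0.49), mt-Nd6 (-5.32 ± 0.22) and mt-Nd5 (-4.59 ± 0.26) fell most, with the call of mt-Nd2 lost with no filter beyond a count above 0 (adjusted p = 0.0501). With dexamethasone alone no gene of the mitochondrial ribosome and 2 of 11 mitochondrially encoded genes were called by edgeR, both lower.

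Annotated ribosomal protein pseudogenes were mostly too low to test, with 26 of 131 tested against dexamethasone, of which 5 rose with EPC-EVs, and 0 fell, beside 20.9% and 18.9% of all genes. Rps2-ps6 went from 0.728 and 1.62 to 15.8 and 12.4 CPM (3.53 ± 0.52) and Rps2-ps10 from 1.75 and 3.97 to 17.3 and 16.0 CPM (2.49 ± 0.45), while Rps2 itself held 1461 and 1486 against 1269 and 1276 CPM and was not called. Rpl10-ps6 rose from 0.582 and 0 CPM to 2.77 and 4.71 CPM, a call lost in 3 alternatives. Against control 2 of 29 rose and 1 fell, beside 19.1% and 17.2% of all genes, and none of 24 was called between dexamethasone and control.

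Host genes of small nucleolar RNAs, which guide the modification of ribosomal RNA, gave 2 rises and 0 falls of 10 against dexamethasone. These counts stand beside 20.9% and 18.9% of all genes. Both rises were of protein-coding hosts: Rack1, as in the report, and Eef2, from 1752 and 1677 to 2885 and 2891 CPM (0.71 ± 0.11, adjusted p = 0.000322). The value of Eef2 dropped to 0.09 with the trend on GC content and length removed (adjusted p = 0.536). Against control 2 of 10 rose and 1 fell, beside 19.1% and 17.2% of all genes. Of 5 genes tested from a list that holds Gm26917, Neat1 and Gm42418, 4 rose and 1 fell against dexamethasone, beside 20.9% and 18.9% of all genes. Of the same genes 3 rose and 1 fell against control, beside 19.1% and 17.2%. With dexamethasone alone 1 fell, beside 0.0388% of all genes. Gm26917 went from 10894 and 7629 to 59896 and 69266 CPM (2.76 ± 0.16), Neat1 from 49.6 and 63.6 to 358 and 350 CPM (2.60 ± 0.15) and Gm42418 from 304 and 752 to 2654 and 2673 CPM (2.29 ± 0.52). The call of Gm42418 was lost in 5 alternatives, among them those without either vesicle library (adjusted p = 0.35 and 0.347), and that of Gm26917 without vesicle replicate 2 (adjusted p = 0.138). Leukocyte markers summed to 10.1 to 17.2 CPM and adipocyte markers to at most 0.163 CPM, and none of the 3 erythroid markers was in the table.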
